A study of Rattus norvegicus with 23 samples.

Results

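The comparison is of rat brain cell aggregates exposed to sepiapterin for 24 hours with aggregates given only the vehicle, phosphate-buffered saline (PBS), for the same time. It takes 6 of the 23 libraries of the series: the 3 titled as 24-hour cultures with 120 ng/ml sepiapterin (numbers 114, 115 and 117 in the labels, here sepiapterin replicates 1, 2 and 3) and the 3 titled as 24-hour controls (numbers 19, 20 and 22, here control replicates 1, 2 and 3). All came from Sprague Dawley rats, from brain at embryonic day 15, cultured as 3D aggregates for 14 days with constant agitation and fresh medium every 3 days. The study also sampled both treatments at 6 and 12 hours and controls at 0 hours. Its title asks about brain development in patients with phenylketonuria treated early with sapropterin, a synthetic tetrahydrobiopterin. The libraries of 24 hours were all prepared in the second of the 2 library batches that the labels describe, so treatment and control are compared within a batch. Nothing in the labels states whether the 3 libraries of a group are separate cultures, and the tests therefore reflect only library-to-library spread, which may be technical. An aggregate is a mixture of cell types, so a lower level in bulk RNA cannot tell fewer cells of a type from less RNA per cell.

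Sepiapterin is a pteridine that cells take up and reduce, through the salvage pathway, to tetrahydrobiopterin. That cofactor serves the hydroxylases of phenylalanine, tyrosine and tryptophan, and with them dopamine and serotonin synthesis, and it couples the nitric oxide synthases. Nitric oxide signals mainly through cyclic GMP. Separately, synaptic activity in neurons leads through calcium and cyclic AMP to immediate-early genes such as Fos and the Nr4a receptors, and mitochondrial DNA supplies a small set of respiratory chain subunits.

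After 24 hours the sepiapterin libraries had more RNA of 4 of 11 activity-regulated genes (Nr4a1, Nr4a2, Fos and Bdnf). More RNA was also found for 8 of 12 mitochondrially encoded subunits and 2 of 6 genes of the response to oxidants (Hmox1 and Gclc). Ldha, 1 of 10 genes of glucose use and hypoxia, had less. The lists were regrouped after values had been seen. Of the genes just named, Nr4a2 and Ldha passed the test whichever library of 24 hours was left out. In 4 of the 6 such fits, 0 of the 8 mitochondrial calls held, and in the same 4 Hmox1 and Gclc were lost. Most differences were small. Of 14035 genes tested, 585 passed edgeR's quasi-likelihood test at a Benjamini-Hochberg adjusted p under 0.05 (here "called"), which is 4.17% of them. Called higher were 291 genes (2.07%) and called lower 294 (2.09%). The median size of a called difference was 0.27 on the log2 scale, 48 called genes differed at least 1.5-fold and 9 at least 2-fold. The number of calls rested on single libraries. Leaving out sepiapterin replicates 1, 2 and 3 in turn gave 11, 53 and 1463 calls. Leaving out control replicates 1, 2 and 3 gave 226, 87 and 117. A fit of the 6 libraries alone called 196 genes, DESeq2 called 835 and voom 1740.

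**Figure D1:**
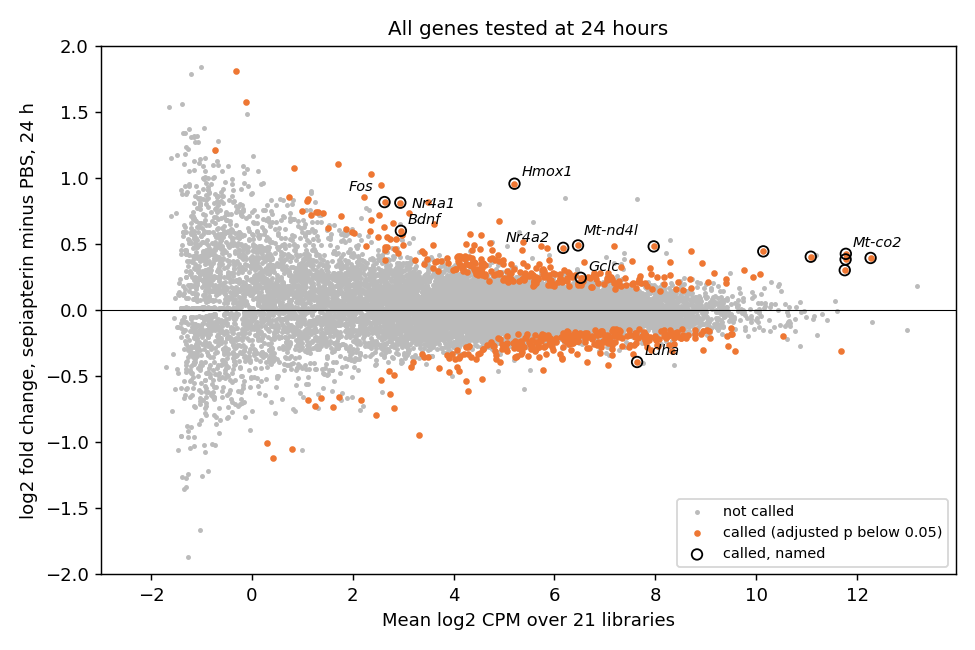
Each point is a gene, with its mean log2 CPM over the 21 libraries of the fit on the x axis and its log2 fold change at 24 hours (sepiapterin minus PBS) on the y axis. Orange points are the 585 called genes, circles mark the 15 called genes that have a symbol, and 5 genes lie beyond the limits of -2 and 2. Of the circled points, Ldha alone lies below zero.

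The libraries held 16991417 to 19369187 reads in genes, and the treated and control ranges overlapped. Sepiapterin replicate 3 lay nearer to the controls, at root mean square distances of 0.279 to 0.282 log2 units, than to sepiapterin replicates 1 and 2, at 0.301 and 0.294. No pair of libraries differed by as little as counting noise, the smallest ratio of chi-square to degrees of freedom being 2.59.

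The deposited tables name genes by Ensembl identifier alone. The symbol Ldha is given for ENSRNOG00000013009 in the description of the comparison, and the other symbols used here were recalled from general knowledge of rat Ensembl identifiers. They could not be checked against a table, so each called gene is printed with its identifier. Of 105 symbols, 95 could be tested and 15 were called (15.8%), 14 higher and 1 lower. Over all genes tested 4.17% were called, 291 higher and 294 lower. The symbols were chosen with earlier results of these data known, so their counts cannot serve as a test. For 33 of the 95 (34.7%) the treated libraries lay all above or all below the controls, as they did for 23.5% of all genes tested. The other 10 had almost no reads at 24 hours, among them Tpi1, Col1a2, Npy and Mt-nd4, which are familiar in brain cultures. For these a wrong pairing and a loss of reads aligned to several places cannot be told apart.

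**Figure D2:**
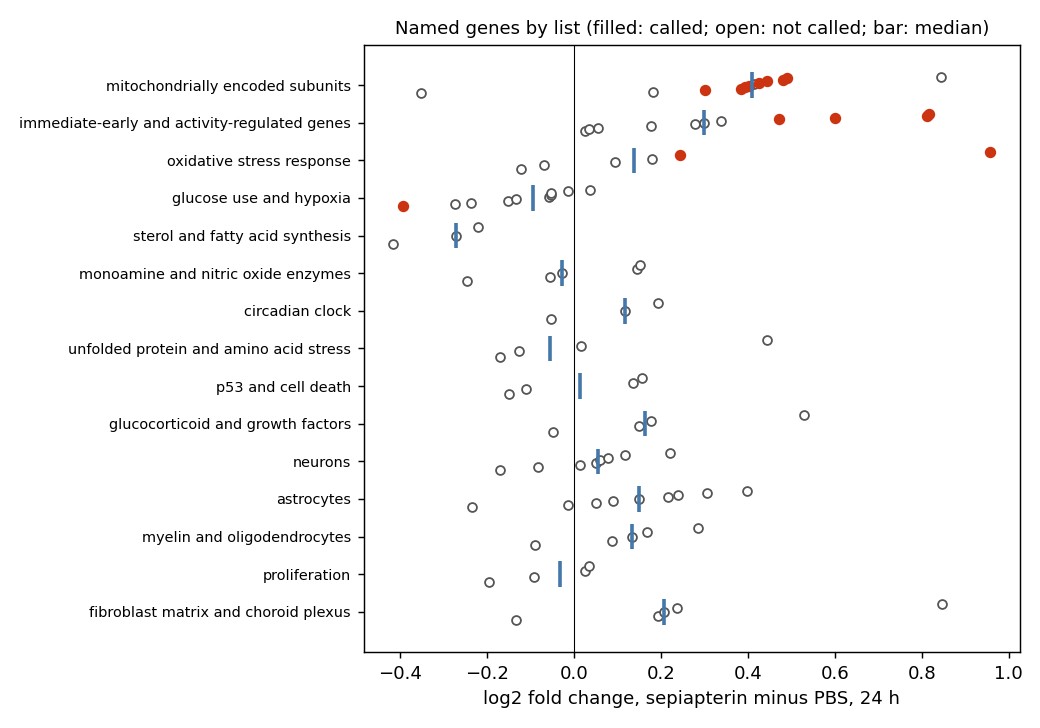
Log2 fold changes at 24 hours (sepiapterin minus PBS, x axis) of the named genes in 15 lists (y axis), with called genes filled, genes not called open, and the median of each list as a bar. Calls fall in 4 lists, and the medians of the first 2 lists, 0.41 and 0.30, are the highest. The lists were regrouped after values had been seen.

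Among immediate-early and activity-regulated genes, 4 of 11 were called, all higher, where 4.17% of all genes tested were called. The median of the 11 was 0.30 on the log2 scale, against 0.01 over all genes tested. Leaving out 1 library at a time gave 1 to 4 calls and medians of 0.20 to 0.44. This list was regrouped after values had been seen, so its count and median cannot serve as a test of the group. Nr4a1 and Nr4a2 encode orphan nuclear receptors that are transcribed within minutes of a stimulus, and Nr4a2 is also required for midbrain dopamine neurons. Nr4a1 (ENSRNOG00000007607) stood at 5.70, 5.46 and 4.94 CPM (reads scaled to library size with TMM factors) in the controls and 10.2, 8.08 and 9.97 CPM with sepiapterin. The groups did not overlap, and Nr4a1 was 1.76-fold higher (95% interval 1.42 to 2.17; log2 fold change 0.81 ± 0.15 SE; edgeR adjusted p 0.0062). Nr4a2 (ENSRNOG00000005600) stood at 68.0, 62.9 and 64.4 CPM in controls and 97.3, 94.1 and 79.5 CPM with sepiapterin. Sepiapterin replicate 3 was the lowest treated library and still above every control, and Nr4a2 was 1.39-fold higher (95% interval 1.27 to 1.51; log2 fold change 0.47 ± 0.06 SE; edgeR adjusted p 0.00031).

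RefSeq's promoter table, on build GRCr8, held entries for 5 of the 15 called named genes. The 250 bases before the start of Nr4a1, at chr7:134259888-134260137 on the plus strand, are printed because they hold 4 copies of a short motif tied to cyclic AMP signalling. Capitals mark TGCGTCA, a 7-letter relative of the cyclic AMP response element, searched on both strands and chosen after the sequence had been seen.
Nr4a1: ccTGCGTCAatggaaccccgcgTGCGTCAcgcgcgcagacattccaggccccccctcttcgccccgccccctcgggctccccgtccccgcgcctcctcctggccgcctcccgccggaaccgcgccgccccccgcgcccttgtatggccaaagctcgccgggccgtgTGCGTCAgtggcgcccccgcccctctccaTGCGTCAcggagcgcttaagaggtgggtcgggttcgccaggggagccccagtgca
The motif occurred in 1.66% of 33360 promoter windows of this length, and 1 window, that of Nr4a1, held 3 or more copies. As the motif was chosen after this sequence had been seen, its rarity elsewhere cannot serve as a test. The cyclic AMP response element itself, TGACGTCA, had 0 matches in the Nr4a1 window. The matches of TGCGTCA are letters in a window and no measurement of binding.

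Fos (ENSRNOG00000008015), a subunit of the AP-1 transcription factor, stood at 3.83, 3.17 and 3.91 CPM in controls and 7.59, 5.87 and 5.81 CPM with sepiapterin. All treated libraries were above all controls, a 1.76-fold difference (log2 fold change 0.82 ± 0.22 SE; edgeR adjusted p 0.039). Bdnf (ENSRNOG00000047466), a neurotrophin whose transcription follows neuronal activity, stood at 6.82, 6.68 and 5.86 CPM in controls and 9.59, 9.04 and 10.7 CPM with sepiapterin. It was 1.52-fold higher with no overlap (log2 fold change 0.60 ± 0.14 SE; edgeR adjusted p 0.020). The other 7 members did not pass the test. Junb, another AP-1 subunit, had a log2 fold change of 0.34 and the synaptic gene Arc one of 0.28. Egr1 (0.18), Ptgs2 (0.30), Atf3 (0.05), Dusp1 (0.03) and Jun (0.03) also had values above zero. Nr4a2 stayed called without any single library of 24 hours, and Nr4a1 was lost only without sepiapterin replicate 1 (edgeR adjusted p 0.070). Bdnf was lost without sepiapterin replicates 1 and 2 and control replicates 2 and 3 (edgeR adjusted p 0.12, 0.055, 0.056 and 0.084). Fos was lost without any 1 library other than sepiapterin replicate 3, with edgeR adjusted p 0.081 to 0.25, and also with no filter on low counts.

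**Figure D3:**
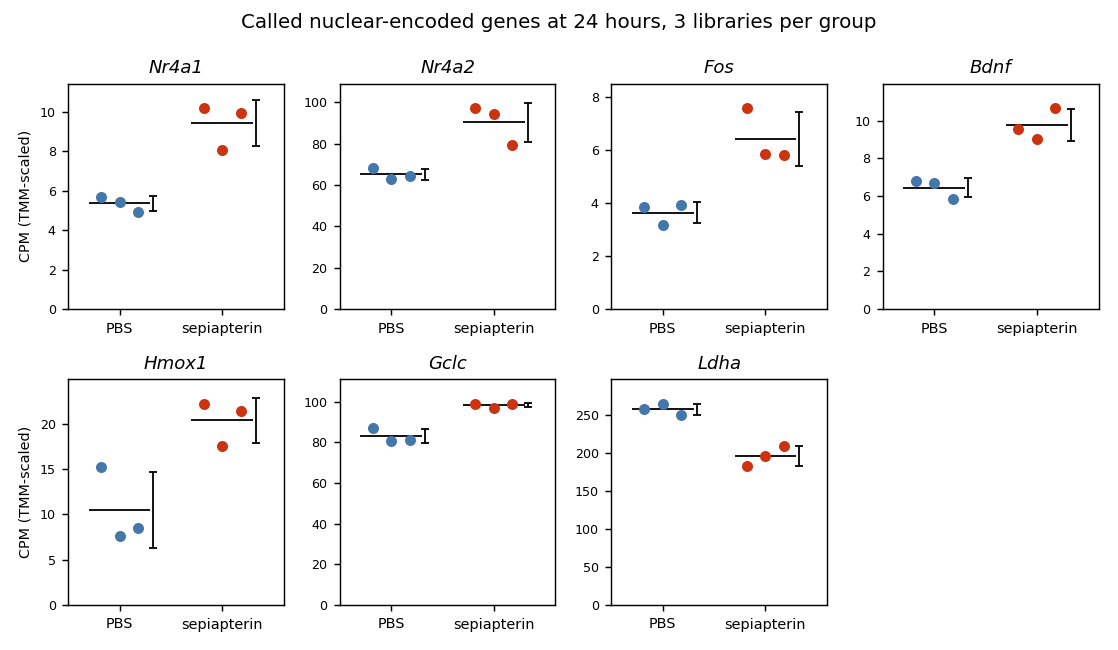
Levels in CPM (y axis, from zero) of the 7 called nuclear-encoded genes with a symbol in the 3 PBS and 3 sepiapterin libraries of 24 hours. Points are libraries in replicate order, lines are means and error bars SD. In each of the 7 panels the groups do not overlap, and Ldha is the 1 gene lower with sepiapterin.

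Of the 13 protein genes of mitochondrial DNA, 12 could be tested and 8 were called, all higher with sepiapterin. Of all genes tested, 4.17% were called. Since 4 of the mitochondrial symbols were recalled after values had been seen, the count of calls cannot serve as a test of the group. The median of the 12 was 0.41 on the log2 scale, and 11 were above zero. For the complex IV subunits Mt-co2 and Mt-co3 the groups did not overlap. Mt-co2 (ENSRNOG00000030371) stood at 2969, 2536 and 2663 CPM in controls and 4083, 3732 and 3158 CPM with sepiapterin, a 1.34-fold difference (log2 fold change 0.43 ± 0.08 SE; edgeR adjusted p 0.013). Mt-co3 (ENSRNOG00000030700) had a log2 fold change of 0.38 ± 0.08 (SE; edgeR adjusted p 0.018). Mt-co1, which encodes the catalytic subunit of the same complex, stood at 7594 to 9370 CPM in controls and 8595 to 10202 CPM with sepiapterin and was not called (log2 fold change 0.18; edgeR adjusted p 0.22).

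Complex I, which takes electrons from NADH, had 4 called subunits. Mt-nd5 (ENSRNOG00000029971) stood at 1019, 883 and 860 CPM in controls and 1444, 1263 and 1051 CPM with sepiapterin, with a log2 fold change of 0.44 ± 0.09 (SE; edgeR adjusted p 0.019). Mt-nd3 (ENSRNOG00000033615), Mt-nd1 (ENSRNOG00000030644) and Mt-nd4l (ENSRNOG00000031053) had log2 fold changes of 0.48, 0.40 and 0.49 (edgeR adjusted p 0.024, 0.040 and 0.048), again with no overlap. Mt-nd2 had a log2 fold change of 0.41 with overlapping groups (edgeR adjusted p 0.052). Mt-nd6, the one subunit encoded on the light strand, stood at 13.0, 12.5 and 11.2 CPM in controls and 8.22, 8.80 and 11.6 CPM with sepiapterin. Its groups overlapped and it was not called (log2 fold change -0.35; edgeR adjusted p 0.24). Cytochrome b of complex III, Mt-cyb (ENSRNOG00000031766), was called at 0.30 (edgeR adjusted p 0.036), and the ATP synthase subunit Mt-atp6 (ENSRNOG00000031979) at 0.39 (edgeR adjusted p 0.022). In both, control replicate 1 lay above sepiapterin replicate 3. Mt-atp8, the other mitochondrial ATP synthase subunit, stood at 173, 170 and 198 CPM in controls and 391, 341 and 240 CPM with sepiapterin and missed the threshold (log2 fold change 0.84 ± 0.24 SE; edgeR adjusted p 0.058).

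In 11 of the 12 subunits sepiapterin replicate 1 was the highest and sepiapterin replicate 3 the lowest treated library. Together the 13 mitochondrial genes took 2.86, 2.35 and 2.40% of reads in genes in the controls and 3.56, 3.19 and 2.84% with sepiapterin. Those shares overlapped between control replicate 1 and sepiapterin replicate 3, and the two-sided exact permutation p was 0.20, where 0.10 is the smallest that 3 against 3 libraries can give. None of the 8 calls held without sepiapterin replicate 1, sepiapterin replicate 2, control replicate 2 or control replicate 3. The median of the list ran from 0.32 to 0.51 over the 6 fits that each left out 1 library. The fit of the 6 libraries alone called 2 of the 12, with a median of 0.41.

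**Figure D4:**
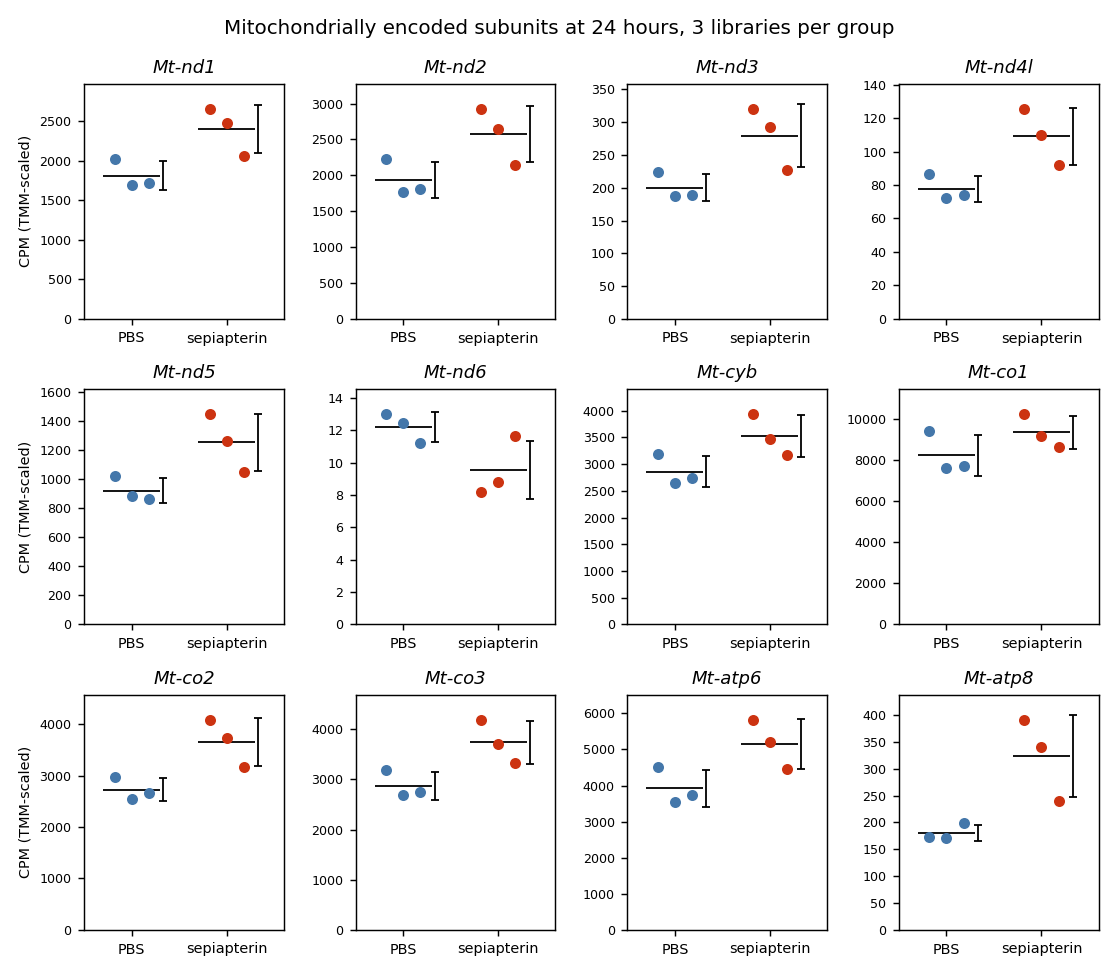
Levels in CPM (y axis, from zero) of the 12 tested mitochondrially encoded subunits in the 3 PBS and 3 sepiapterin libraries of 24 hours. Points are libraries in replicate order, lines are means and error bars SD. Sepiapterin replicate 3 is the lowest treated library in 11 panels and the highest in that of Mt-nd6.

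Of 6 genes of the oxidative stress response, 2 were called, both higher, where 4.17% of all genes tested were called. The median was 0.14, against 0.01 over all genes tested. The list was regrouped after values had been seen, so its count and median cannot serve as a test of the group. Hmox1 (ENSRNOG00000014117), the inducible heme oxygenase, stood at 15.2, 7.63 and 8.45 CPM in controls and 22.2, 17.5 and 21.3 CPM with sepiapterin. Control replicate 1 was high within its group, yet the groups did not overlap, and Hmox1 was 1.94-fold higher (95% interval 1.44 to 2.62; log2 fold change 0.96 ± 0.20 SE; edgeR adjusted p 0.020). Without control replicate 1 the log2 fold change of Hmox1 was 1.34. Gclc (ENSRNOG00000006302), the catalytic subunit of the enzyme that limits glutathione synthesis, stood at 87.1, 80.7 and 81.3 CPM in controls and 99.1, 97.1 and 98.9 CPM with sepiapterin. This was a 1.18-fold difference (log2 fold change 0.24 ± 0.06 SE; edgeR adjusted p 0.031). Nqo1 (0.18), the superoxide dismutases Sod1 (0.10) and Sod2 (-0.12) and catalase, Cat (-0.07), did not pass. Hmox1 and Gclc were both lost without sepiapterin replicate 1, sepiapterin replicate 2, control replicate 2 or control replicate 3, with edgeR adjusted p 0.056 to 0.15 for Hmox1 and 0.091 to 0.18 for Gclc. The fit of the 6 libraries alone lost Hmox1 and kept Gclc.

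Ldha (ENSRNOG00000013009), the lactate dehydrogenase subunit that favours making lactate from pyruvate, was 1.31-fold lower with sepiapterin than in the controls of 24 hours. It stood at 258, 266 and 250 CPM in controls and 184, 196 and 210 CPM with sepiapterin. All treated libraries were below all controls (log2 fold change -0.39 ± 0.05 SE; edgeR adjusted p 0.00031), and the call held without any single library of 24 hours. The 250 bases before its RefSeq start, on GRCr8 at chr1:106507842-106508091 on the plus strand, are printed because they carry motifs of the hypoxia and the cyclic AMP responses. Capitals mark ACGTG, a form of the core of the hypoxia response element, on either strand, and TGACGTCA, the cyclic AMP response element. Both were chosen after the sequence had been seen, and other forms of the hypoxia core were not searched.
Ldha: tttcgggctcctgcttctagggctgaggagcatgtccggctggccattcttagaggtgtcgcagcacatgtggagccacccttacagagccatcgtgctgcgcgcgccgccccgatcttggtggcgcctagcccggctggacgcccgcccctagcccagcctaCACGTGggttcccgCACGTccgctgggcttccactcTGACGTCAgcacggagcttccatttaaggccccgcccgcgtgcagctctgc
ACGTG matched at 3 places, of which 2 overlap as CACGTG on the opposite strands, and TGACGTCA at 1. ACGTG is common, in 16.6% of windows once or more and in 1.27% at 3 or more places, and TGACGTCA was in 1.59%. As both motifs were chosen after this sequence had been seen, these shares cannot serve as a test. The matches are letters in a window and no measurement of binding, and their part in the level of Ldha was not tested.

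Ldha was the 1 called gene of 10 tested for glucose use and hypoxia, a list regrouped after values had been seen. Of all genes tested, 4.17% were called. The median of the list was -0.09, and 9 of the 10 were below zero, as were 6776 of all 14035 genes tested. Ldhb, the subunit that favours the reverse reaction, had a log2 fold change of -0.01. The kinase Hk2 stood at 13.1, 14.8 and 14.7 CPM in controls and 12.3, 12.2 and 10.8 CPM with sepiapterin (log2 fold change -0.27; edgeR adjusted p 0.17). The hypoxia-regulated Vegfa (-0.13), the transcription factor Hif1a (-0.05), the glycolytic enzymes Eno1 (-0.05) and Pkm (-0.06), the glucose-responsive Txnip (-0.24) and the glucose transporter Slc2a1 (0.04) were not called. Gapdh, at 3.11 to 3.91 CPM, has many pseudogene copies and is uncertain here (log2 fold change -0.15).

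All 3 genes of sterol and fatty acid synthesis described here had values below zero with no overlap between groups. Their median was -0.27, and 0 were called by edgeR. Groups also did not overlap for 23.5% of all genes tested. These 3 are the listed genes of both pathways with a recalled identifier, and they do not stand for the pathways. An unadjusted p under 0.05 was found for 2 of the 3 genes, and both DESeq2 and voom called 2. Hmgcs1, a synthase of the sterol pathway, stood at 2196, 2233 and 2305 CPM in controls and 1741, 1911 and 1926 CPM with sepiapterin, missing the threshold (log2 fold change -0.27 ± 0.08 SE; edgeR adjusted p 0.052). The fatty acid synthase Fasn stood at 1726, 1659 and 1650 CPM in controls and 1435, 1349 and 1541 CPM with sepiapterin (log2 fold change -0.22; edgeR adjusted p 0.071). The desaturase Scd stood at 567, 505 and 550 CPM in controls and 408, 397 and 412 CPM with sepiapterin (log2 fold change -0.41 ± 0.26 SE; edgeR adjusted p 0.41). The call for Hmgcs1 was gained without sepiapterin replicate 3 (edgeR adjusted p 0.043), as was that for Fasn (0.030), and the fit of the 6 libraries alone called Hmgcs1 and Scd.

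Of 5 tested genes of the tetrahydrobiopterin-dependent systems and of monoamine breakdown, 0 were called by edgeR, DESeq2 or voom, 0 had an unadjusted p under 0.05, and their median was -0.03. Tyrosine hydroxylase, Th, which needs the cofactor, stood at 2.98, 2.45 and 1.95 CPM in controls and 3.03, 2.40 and 2.80 CPM with sepiapterin, with overlapping groups (log2 fold change 0.15; edgeR adjusted p 0.68). The neuronal nitric oxide synthase Nos1, another user of the cofactor, stood at 57.5 to 67.2 CPM in controls and 57.3 to 60.3 CPM with sepiapterin (log2 fold change -0.05). The decarboxylase Ddc (-0.24) and the oxidases Maoa (-0.03) and Maob (0.15) did not pass either. The enzymes that make tetrahydrobiopterin had no identifier paired with certainty and are not described.

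By edgeR, 0 members were called in the lists of the circadian clock (3 genes, median 0.12), the unfolded protein and amino acid response (4 genes, -0.05), p53 and cell death (4 genes, 0.01), and glucocorticoid and growth factor genes (4 genes, 0.16). The p53 list had 0 genes with an unadjusted p under 0.05 and 0 calls by DESeq2 or voom. Each of the others had 1 gene with an unadjusted p under 0.05 and 1 call by voom, and DESeq2 called 1 gene in the unfolded protein and amino acid list. Nearest to the threshold was Asns, the asparagine synthetase, at 163 to 175 CPM in controls and 147 to 154 CPM with sepiapterin (log2 fold change -0.17; edgeR adjusted p 0.051). The clock activator Bmal1 had a log2 fold change of 0.19 with no overlap (edgeR adjusted p 0.086).

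Markers of neurons, astrocytes and myelinating cells had reads in all 6 libraries, while the microglial Aif1 had 0 counts and Itgam at most 4. The identifier taken for Aif1 had a mean of 0 reads over all libraries, as had those taken for Col1a2, Npy and Tpi1. For Aif1 and Itgam, absence of microglia cannot be told from a wrong pairing or a loss of reads. Of the tested markers, 0 of 8 neuronal, 0 of 9 astrocytic, 0 of 5 myelin, 0 of 4 proliferation and 0 of 5 matrix and choroid plexus genes were called by edgeR. Those with an unadjusted p under 0.05 numbered 1, 2, 0, 1 and 2. DESeq2 called 1 neuronal gene, and voom 1 neuronal, 1 astrocytic and 1 matrix and choroid plexus gene. The last was Vim, which the lists as first drawn up placed among radial glia and neural progenitors. The median log2 fold changes of the lists were 0.05, 0.15, 0.13, -0.03 and 0.21. The summed astrocyte markers stood at 3671 to 4157 CPM in controls and 4106 to 4486 CPM with sepiapterin, overlapping ranges (two-sided exact permutation p 0.20, smallest possible 0.10). Of the 9 astrocyte markers, 7 had values above zero and 2 below. Gfap was lower with no overlap (log2 fold change -0.23, edgeR adjusted p 0.73). S100b, Aqp4 and Gja1 were higher with no overlap and not called (0.40, 0.24 and 0.15; edgeR adjusted p 0.15, 0.38 and 0.57). For 23.5% of all genes tested the groups did not overlap either. The summed neuronal markers stood at 1638 to 1816 and 1742 to 1871 CPM, and the myelin markers at 2963 to 3340 and 3116 to 3525 CPM. Ttr, the choroid plexus product, varied from 36.6 to 105 CPM between controls and from 70.9 to 208 CPM between treated libraries. The part of such shifts in the results above was not tested. The synaptic Syn1 was nearest to the threshold (log2 fold change 0.22; edgeR adjusted p 0.054) and had the highest value of the 8 neuronal markers. Of these 8, 6 had values above zero and 2, Snap25 (-0.08) and Grin2b (-0.17), below.

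Among genes without a certain symbol, those with the smallest p and no overlap are given by identifier. ENSRNOG00000004100 stood at 3.14, 3.79 and 2.93 CPM in controls and 6.96, 6.47 and 6.70 CPM with sepiapterin, 2.04-fold higher (log2 fold change 1.03 ± 0.12 SE; edgeR adjusted p 0.00021). ENSRNOG00000042029 was 1.42-fold higher (edgeR adjusted p 0.00024). ENSRNOG00000042289 was 1.21-fold lower and ENSRNOG00000028292 1.22-fold lower (edgeR adjusted p 0.0036 and 0.0037). These 4 kept their calls without any single library of 24 hours.

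The 15 named genes were also followed at the earlier times, with the treated and control libraries of each time. At 12 hours Ldha alone of them was called (log2 fold change -0.32 ± 0.05 SE; edgeR adjusted p 0.029), and at 6 hours its value was -0.15 ± 0.05 and not called. Nr4a2 had log2 fold changes of 0.09 ± 0.06 at 6 hours and 0.27 ± 0.06 at 12 hours (SE; edgeR adjusted p 1.00 and 0.081). Nr4a1 had 0.12, 0.29 and 0.81 at 6, 12 and 24 hours. The median of the mitochondrial subunits was 0.05, 0.07 and 0.41 at the same times. Hmox1 levels differed widely between times in the controls, at 9.67 ± 1.27, 58.4 ± 4.18, 44.2 ± 3.17 and 10.4 ± 4.17 CPM (SD, n = 3 each) at 0, 6, 12 and 24 hours. The 0-hour and 24-hour controls overlapped, and all controls of 6 and 12 hours lay above them. Time and library batch cannot be told apart for 24 hours, and for 0 hours no source used here gives the batch.

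Whether the effect of sepiapterin itself differed between times was tested in the same fit. The effect at 24 hours minus that at 12 hours was called for 33 genes (0.235%; 30 higher, 3 lower) by edgeR, and for 0 of the 95 named genes, of which 18 had an unadjusted p under 0.05. DESeq2 called 163 genes, 4 of them named. Of the identifiers above, ENSRNOG00000004100 was among the 33, with a difference of 0.77 ± 0.17 (SE) on the log2 scale (edgeR adjusted p 0.047). For Ldha the difference was -0.07 ± 0.07, for Nr4a2 0.20 ± 0.09, for Hmox1 0.67 ± 0.26 and for Mt-co3 0.38 ± 0.12 (edgeR adjusted p 0.73, 0.33, 0.28 and 0.16). The effect at 24 hours minus that at 6 hours was called for 0 genes by edgeR (0%), with 1662 at an unadjusted p under 0.05, the smallest adjusted p at 0.063, and 34 calls by DESeq2, 1 of them named. Leaving out sepiapterin replicate 3 moved the edgeR counts to 567 and 372, and leaving out sepiapterin replicate 1 to 1 and 0.

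**Figure D5:**
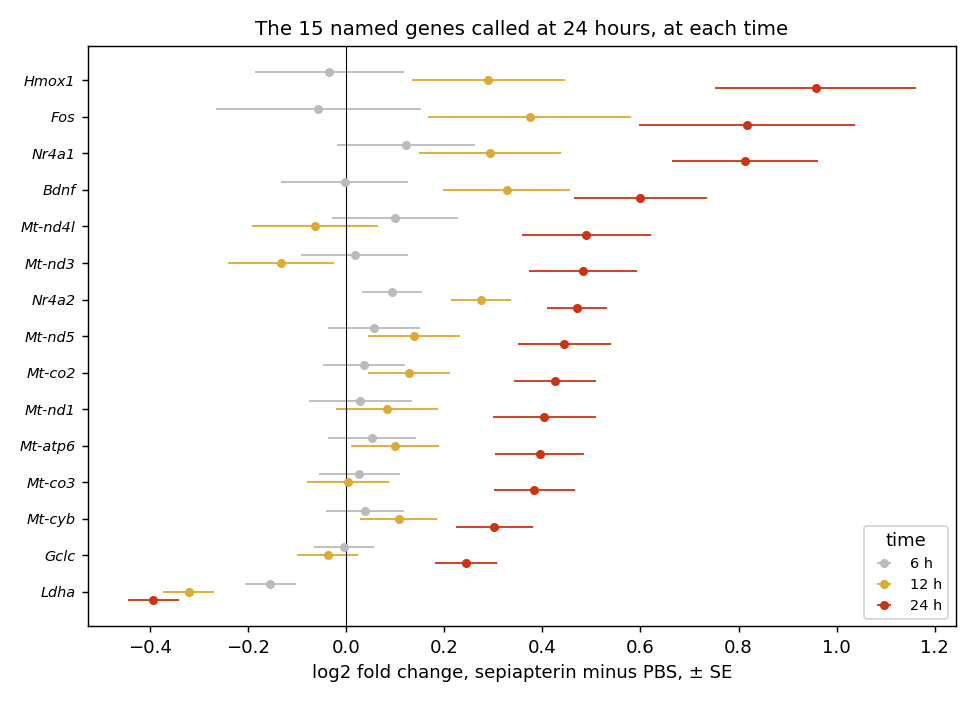
Log2 fold changes (sepiapterin minus PBS, x axis, bars ± SE) of the 15 named genes called at 24 hours (y axis), at 6, 12 and 24 hours. The genes were chosen for their calls at 24 hours, so larger values at that time are favoured by the choice, and the test of the difference from 12 hours called 0 of the 95 named genes. Ldha is below zero at each time.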

How the data were processed

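Polyadenylated RNA of 23 libraries of aggregates was sequenced as stranded libraries from 500 ng of total RNA, per the labels' protocols. The deposited values are raw counts of reads for 32494 Ensembl identifiers, with 5 summary lines that were left out here. Per the submitters' processing notes, the tools were cutadapt 1.8, STAR 2.5.2b and HTSeq 0.6.1, with the rat build Rnor_6.0. For the strand setting and the annotation, no source used here gives a value, and overlapping or near-identical genes are uncertain. Depth was 16991417 to 26588314 reads in genes, and the median SE of a log2 fold change at 24 hours was 0.08.

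One edgeR 4.0.16 fit (R 4.3.3; robust quasi-likelihood, TMM, filterByExpr with minimum count 10) covered 7 groups of 3 libraries (21 in all), leaving 14 residual degrees of freedom. The repeats of 2 T12 controls were left out. Titles set the groups, and for those samples titles and file headers disagree. Adjusted p-values are Benjamini-Hochberg over all 14035 genes. Scripts were tested on simulated data. DESeq2 1.42.0, voom with quality weights (limma 3.58.1), other scalings and filters, a fit of 6 libraries, fits without single libraries and, added after the data were seen, a pairing by title number were the alternatives. Single library values were compared by exact permutation (scipy 1.17.1).

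The members, lists and motifs were chosen with earlier results of these data known. The reference table (GRCr8, 47357 genes) held 0 Ensembl identifiers. The naming rule took called genes by p and fold with no overlap and a mean log2 CPM of at least 1, and list members, and allowed symbols only where the description of the comparison pairs them with certainty. That description spells out Ldha alone and allows names known with certainty, so the recalled symbols go beyond the rule as written. They cover 104 of the 820 listed symbols, the lists were regrouped around them after values had been seen, and 4 mitochondrial symbols were recalled after values had been seen. Some listed genes are not reported here. Up to 2 identifiers per direction without a symbol were added.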

Additional observations from a re-analysis of the deposited data

Results flagged for a closer look

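The effect of sepiapterin differed between 24 and 12 hours in 33 genes, by edgeR's test of the difference of the effects. ENSRNOG00000004100 was one of them, with an effect larger at 24 hours by 0.77 on the log2 scale. Leaving out sepiapterin replicate 1 or 2 gave 1 gene, and leaving out sepiapterin replicate 3 gave 567. Without control replicates 1, 2 and 3 it was 2, 6 and 13.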

How the results depend on the processing

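The count of 585 called genes became 1740 with voom, 196 in the 6 libraries alone and 35 at an adjusted p under 0.01, and ran from 11 (without sepiapterin replicate 1) to 1463 (without sepiapterin replicate 3) when 1 library was left out. Of 585, 558 were shared with DESeq2's 835 calls and 157 with the 196. The count of 15 named calls became 25 with voom and 3 at an adjusted p under 0.01, and ran from 2 to 21 without 1 library. The 33 genes whose effect differed from 12 hours became 163 with DESeq2 and 143 with T12 controls taken by file header, and ran from 1 to 567 without 1 library. The 0 genes for 6 hours became 34 with DESeq2 and ran from 0 to 372. Over 16 alternatives none of the 15 named calls changed direction, 2 (Ldha and Nr4a2) stayed called in every one, and 11 in at least 10. Of 80 named genes not called, 12 passed under some alternative. The cause of these moves was not tested. Treated and control titles share no number, but at each time the treated numbers lie 95 above the control numbers, and no label says that this pairs the libraries. A check added after the data were seen took the deviations of each library of 24 hours from its group mean. Across genes, these correlated at 0.143, 0.039 and 0.040 in the 3 pairs so formed. Control 20 and treated 117, not a pair, correlated at 0.044, and the other unlike combinations at -0.083 to 0.025. The check cannot decide whether the libraries are paired, as the gap between 0.044 and the pair values of 0.039 and 0.040 is small. The main fit was left without pairing. With the pairs by title number as a replicate block, 8 residual degrees of freedom were left. That fit called 358 genes, 336 of them shared with the 585. It called 13 named genes, with Fos, Gclc and Mt-nd4l lost and Mt-nd2 gained. The replicate block gave 1 gene for the difference from 12 hours and 0 for that from 6 hours. Counts under about 1 CPM limit Ptgs2 and Hspb1.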
